A study of Saccharomyces cerevisiae with 4 samples.

Results

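Yeast copper genes were followed through acetic acid treatment: the metallothionein genes CUP1-1, CUP1-2 and CRS5, the copper transporter genes CTR1, CTR2 and CTR3, the copper chaperone gene ATX1, and the copper-sensing transcription factor genes CUP2 and MAC1. They were taken by systematic name and chosen by a measured value, the strong rise of CUP1 in this comparison, so the ratios of all 9 are given as a description, with no p-value. Of the 9 genes, 8 had a row among the 5799 genes of the table, and CRS5 had none. All 8 had values on at least 3 of the 4 arrays.

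Treated and untreated cells were of the same budding yeast strain, BY4741, a haploid derivative of S288C (MATa, LYS2) with the deletions his3Δ1, leu2Δ0 and met15Δ0. The ura3 allele is written ura3Δ0 for acid in Cy5 replicate 1, and with a different final digit for each other array. Growth was in rich YPD medium at 28 °C until the absorbance reached 0.6, when 50 ml of culture received 30 mM acetic acid for 2 h; the other culture on each array had no treatment. Each of 4 two-colour arrays carried both RNAs, 2 of them with the acid-treated RNA in Cy5 and 2 with it in Cy3, and arrays are named here by that dye and the replicate number. The design text calls them biological replicates. If same-numbered arrays carried the same RNA with dyes exchanged, which the labels do not settle, n would be 2. Values are log2 ratios of acid-treated over untreated cells, with base 2 assumed. That direction is likely rather than stated. It rests on the weak-acid factor Haa1, whose targets are known to rise under weak acids: all 5 targets tested lay above 0, with a median of 4.48. If the ratios ran the other way, each sign given here would be inverted.

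Copper is needed by a few enzymes and is toxic in excess, so yeast both imports and buffers it. When copper is scarce, Mac1 activates genes of high-affinity uptake: the reductase genes FRE1 and FRE7 and the plasma membrane transporter genes CTR1 and CTR3. When copper is plentiful, Cup2 (also called Ace1) activates CUP1, CRS5 and SOD1, whose products bind copper or use it. Cup2, Mac1 and Haa1 share a DNA-binding domain called the copper fist, although Haa1 is known for the weak-acid response and not for sensing copper. CUP1 is also known to be activated by the heat shock factor Hsf1, without a change in copper.

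**Figure D1:**
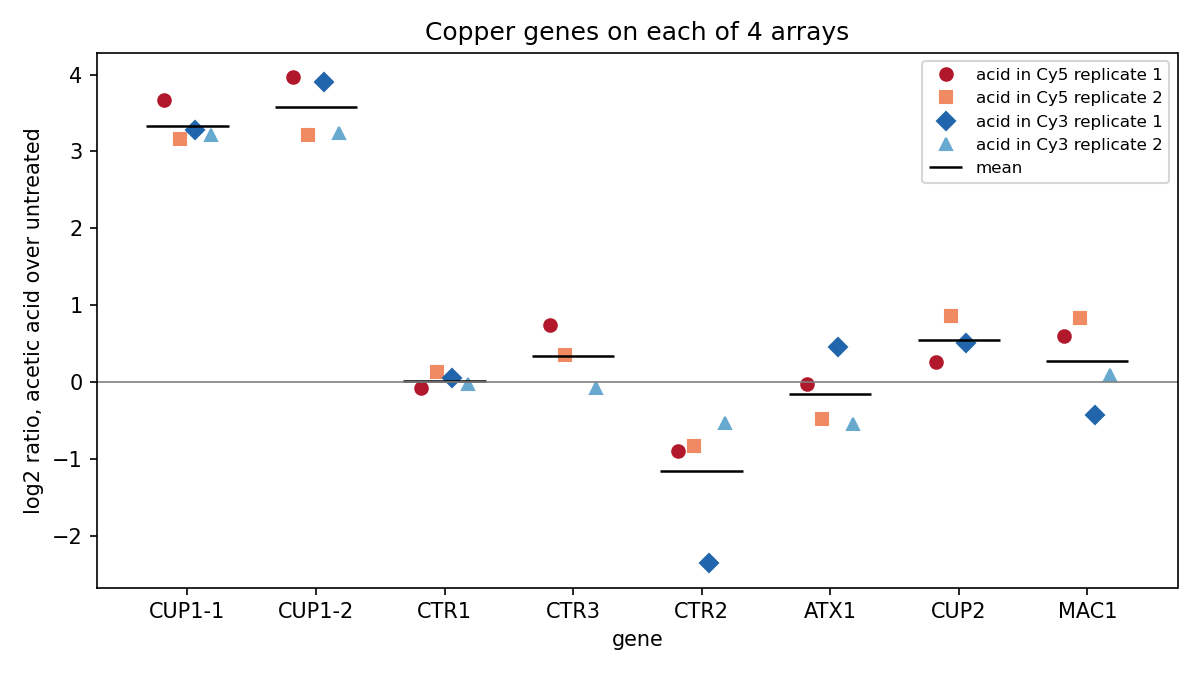
Log2 ratio of acid-treated over untreated cells (y axis) for each of the 8 copper genes with values (x axis); each point is 1 array and each black line the mean. Both CUP1 rows lie above 3 on every array, CTR2 lies below 0 on every array, and the other 5 genes have means between -0.15 and 0.54.

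CUP1 was the group's only large increase. CUP1 encodes the main copper-binding metallothionein, a small cysteine-rich protein of the cytosol that sequesters the metal. CUP1-1 (YHR053C) had log2 ratios of 3.67 and 3.17 with acid in Cy5, for replicates 1 and 2 as in all pairs below, and of 3.29 and 3.21 with acid in Cy3. The mean was 3.33 ± 0.23 (SD, n = 4), or 10.1-fold. CUP1-2 (YHR055C) had 3.97 and 3.21 with acid in Cy5 and 3.90 and 3.24 with acid in Cy3, a mean of 3.58 ± 0.41 (SD, n = 4), or 11.97-fold. All 8 values lay in a narrow band far from 0, from 3.17 to 3.97. Since RNA of whole cultures was compared, more RNA per cell cannot be told apart from more cells that hold it.

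The CUP1 rows are copies of one gene in a tandem repeat with the same coding sequence, so they are repeat measurements of one RNA pool and not separate genes. CUP1-2 exceeded CUP1-1 on every array, by 0.29 and 0.04 with acid in Cy5 and by 0.62 and 0.04 with acid in Cy3. The mean gap of 0.25 ± 0.27 (SD, n = 4 arrays) is about the size of its own spread. With the rows averaged, CUP1 had a mean ratio of 3.46 ± 0.30 (SD, n = 4), or 10.98-fold. On each row, both replicate 1 arrays were above both replicate 2 arrays, with averages over the rows of 3.71 and 3.21; with 2 arrays of each number this was not tested.

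The CUP1 ratios with acid in Cy5 overlapped those with acid in Cy3 on both rows. The difference between orientations, acid in Cy5 minus acid in Cy3, was 0.17 for CUP1-1 and 0.01 for CUP1-2 (limma, Benjamini-Hochberg adjusted p = 0.901 and 0.992 over all genes). Over all genes, 0.227% passed this dye test, 12 of 5291. Of the 8 copper genes 0 did in limma, and 1, MAC1, reached an unadjusted p of 0.05, as did 7.03% of all genes.

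CUP1 stood near the top of all genes, below the largest increases. By mean ratio, CUP1-2 ranked 28 and CUP1-1 ranked 35 among the 5291 genes with values on at least 3 arrays. The number of genes with a higher ratio than CUP1-1 on the same array was 27 and 49 with acid in Cy5 and 22 and 48 with acid in Cy3. For CUP1-2 these numbers were 21, 45, 11 and 45. The median gene had a mean ratio of -0.04, and the median spread over arrays was 0.36, so CUP1-1 varied less than a typical gene and CUP1-2 about as much.

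**Figure D2:**
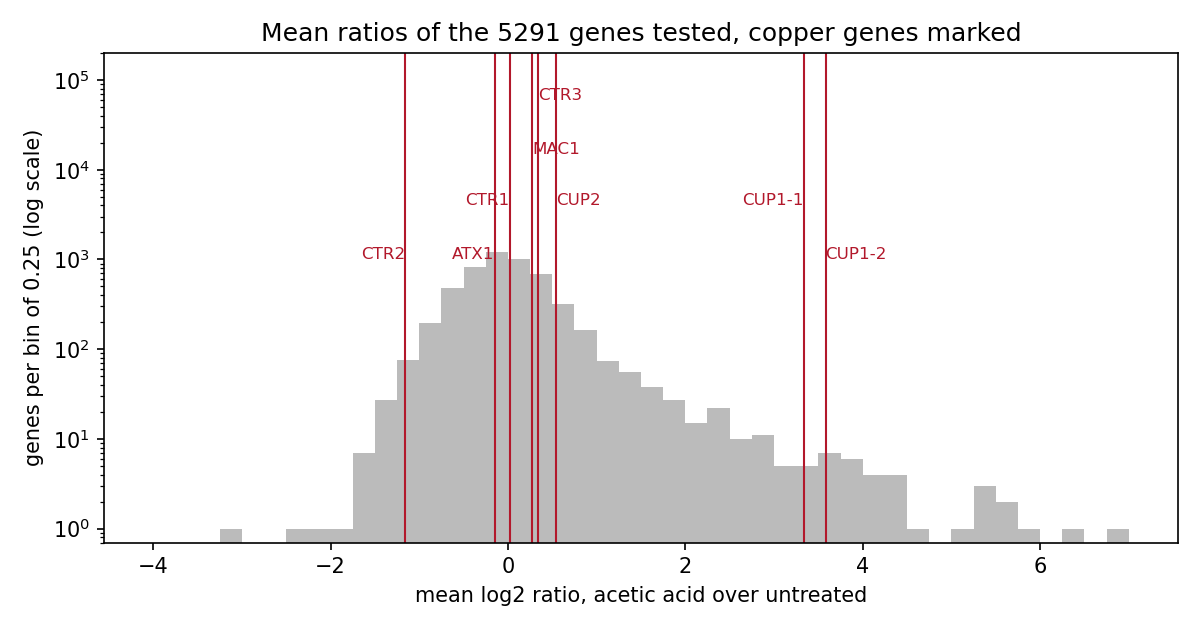
Number of genes (y axis, log scale) by mean log2 ratio of acid-treated over untreated cells (x axis, bins of 0.25) for the 5291 genes with values on at least 3 arrays; red lines mark the 8 copper genes. The CUP1 rows stand in the thin right tail at 3.33 and 3.58, CTR2 on the left flank at -1.16, and the other 5 in the main body.

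In the fit across all genes (limma with Benjamini-Hochberg adjustment, threshold 0.05), 10.9% of genes were called: 8.85% higher and 2.02% lower. Of the 8 copper genes 2 were called, both of them CUP1 rows and both higher. Since CUP1 is the gene the group was assembled around, nothing is read from this count. The median of the 8 mean ratios was 0.31, and 6 of them lay above 0. Both CUP1 rows, which measure the same RNA pool, are among the 6, so nothing is read from these numbers either.

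Of the genes around CUP1, those with values had ratios well below it. In the reference gene order of assembly R64, CUP1-1 and CUP1-2 are separated by YHR054C, an open reading frame of the repeat unit, and flanked by CIC1, a ribosome assembly gene, and by RSC30 and CPR2, genes of a chromatin remodeller subunit and a cyclophilin. YHR054C had ratios of 0.30 and 0.50 with acid in Cy5 and of 0.47 and 0.22 with acid in Cy3, a mean of 0.37 ± 0.13 (SD, n = 4; limma adjusted p = 0.133). CIC1 had a mean of 0.31 ± 0.38 (adjusted p = 0.302) and CPR2 of -0.65 ± 1.01 (adjusted p = 0.280). RSC30 had 1 value, -0.24. The open reading frames YHR052C-B and YHR054C-B, listed right beside the CUP1 copies, had no row. The noncoding RNA genes RUF5-1 and RUF5-2 run opposite to the CUP1 copies at the same places and had none either. Whether the spots tell the strands apart is not given in the sources used here, so CUP1 and RUF5 signals cannot be told apart.

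The 5 genes outside the group with profiles nearest to CUP1 over the 4 arrays, by Euclidean distance to the average of both rows among 4890 genes with 4 values, were FES1, ROQ1, YDR222W, YDL038C and YJR096W. FES1, an exchange factor gene for Hsp70, was closest at a distance of 0.62, with a mean of 3.62 ± 0.16 (SD, n = 4). ROQ1, a regulator gene of protein quality control, followed at 0.81 with 3.22 ± 0.15. The other distances were 0.89 for YDR222W, 0.91 for YDL038C and 0.93 for YJR096W, whose mean ratios were 3.12, 3.73 and 3.57. This distance takes in the mean level as well as the pattern over arrays. With acid in Cy3, FES1 had 3.54 and 3.78, where the average of both CUP1 rows had 3.595 and 3.23.

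The transcription factor genes had small positive mean ratios. CUP2 (YGL166W), the activator of CUP1 under copper excess, had 0.26 and 0.86 with acid in Cy5 and 0.50 with acid in Cy3 replicate 1, and no value on acid in Cy3 replicate 2. Its mean was 0.54 ± 0.30 (SD, n = 3), or 1.46-fold, and all 3 values lay above 0. On the same 3 arrays CUP1-1 exceeded CUP2 by 2.83 ± 0.55 (SD, n = 3).

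MAC1 (YMR021C), the activator under copper scarcity, had 0.60 and 0.83 with acid in Cy5 and -0.43 and 0.10 with acid in Cy3. The mean was 0.27 ± 0.56 (SD, n = 4), less than its spread. Both values with acid in Cy5 were above both with acid in Cy3, a difference of 0.88 that did not pass over all genes (limma adjusted p = 0.665). HAA1, the third copper fist gene, is no member of the group and was tested: 0.32 ± 0.19 (SD, n = 4; limma adjusted p = 0.192), with all 4 values above 0. HSF1 had no row.

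The genes of the plasma membrane transporters had means of 0.02 and 0.34. CTR1 (YPR124W), the high-affinity copper transporter of the plasma membrane, had -0.08 and 0.12 with acid in Cy5 and 0.05 and -0.02 with acid in Cy3. Its mean was 0.02 ± 0.09 (SD, n = 4), and only 2.53% of the genes tested had a smaller spread. CTR3 (YLR411W), a second high-affinity transporter, is known to carry a transposon in its promoter in S288C-derived strains and to be little expressed in them. It had 0.74 and 0.35 with acid in Cy5, -0.08 with acid in Cy3 replicate 2 and no value on acid in Cy3 replicate 1, a mean of 0.34 ± 0.41 (SD, n = 3). By the same distance, the genes nearest to the flat profile of CTR1 were IPT1, ISU2, APL1, SLY41 and GID11, at 0.09 to 0.11.

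CTR2 (YHR175W), which releases copper from the vacuole to the cytosol, had the group's lowest ratios. They were -0.90 and -0.83 with acid in Cy5 and -2.36 and -0.54 with acid in Cy3. All 4 were below 0, but acid in Cy3 replicate 1 was far below the rest. The mean was -1.16 ± 0.82 (SD, n = 4), or 0.448-fold, which ranked 53 from the bottom of the genes tested. It was -0.76 without that array. Within each array CTR2 stood low but not uniformly so: 2.95% and 4.25% of genes were lower with acid in Cy5, and 3.61% and 15.3% with acid in Cy3. CTR2 was not called in the fit to all 4 arrays. It was called without acid in Cy3 replicate 1, with a dye term, with same-numbered arrays as a random block, and after scaling or quantile normalization. The random block fit estimated a correlation below 0, -0.109, so it makes no allowance for shared RNA. CTR2 was not called with same-numbered arrays averaged, which does allow for it. Nor was it called after centring alone, with robust variance, with other minimums of values, or when any other array was left out.

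ATX1 (YNL259C), the chaperone that hands copper to the secretory pathway pump Ccc2, had -0.03 and -0.49 with acid in Cy5 and 0.46 and -0.55 with acid in Cy3. Its mean of -0.15 ± 0.47 (SD, n = 4) was less than its spread, and acid in Cy3 replicate 1 was its only positive value.

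In order of mean ratio the genes were CUP1-2, CUP1-1, CUP2, CTR3, MAC1, CTR1, ATX1 and CTR2. The step from CUP1-1 to CUP2 was several times its spread, with CUP1-1 higher on all 3 shared arrays. Since the group was chosen for the rise of CUP1, nothing is read from the size of this step. From CUP2 to ATX1, no neighbours differed by more than the spread of their difference. CTR3 stood above MAC1 by its mean, but on their 3 shared arrays the difference, CTR3 minus MAC1, was -0.17 ± 0.31 (SD) with CTR3 higher on 1. MAC1 exceeded CTR1 by 0.26 ± 0.56 on average, and CTR1 exceeded ATX1 by 0.17 ± 0.48. ATX1 exceeded CTR2 by 1.01 ± 1.26 (SD, n = 4), on 3 of 4 arrays.

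Acid in Cy3 replicate 1 had the widest ratios, with a standard deviation over genes of 1.05 against 0.70 to 0.81 on the others, and the lowest correlations with them (Pearson's r over genes of 0.41 to 0.62, against 0.67 to 0.80 among the other 3 arrays). On this array 14.7% of 5195 genes lay more than 1 below their mean on the other arrays, and 2.77% more than 1 above. CTR2 was 1 of the former, as were SCO2, COX11, COX23 and FET5 of the copper pathway. URA3 and MET17, deleted in the strain, had -1.94 and -2.58 there, against -0.29 (3 arrays) and 0.12 (1 array) elsewhere. HIS3, the third deleted gene with values, had -0.27 there against 0.05 elsewhere. CUP1-1 had 3.29 there against 3.35 elsewhere, and CUP1-2 had 3.90 against 3.47. What part of the low CTR2 value belongs to the array was not tested.

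**Figure D3:**
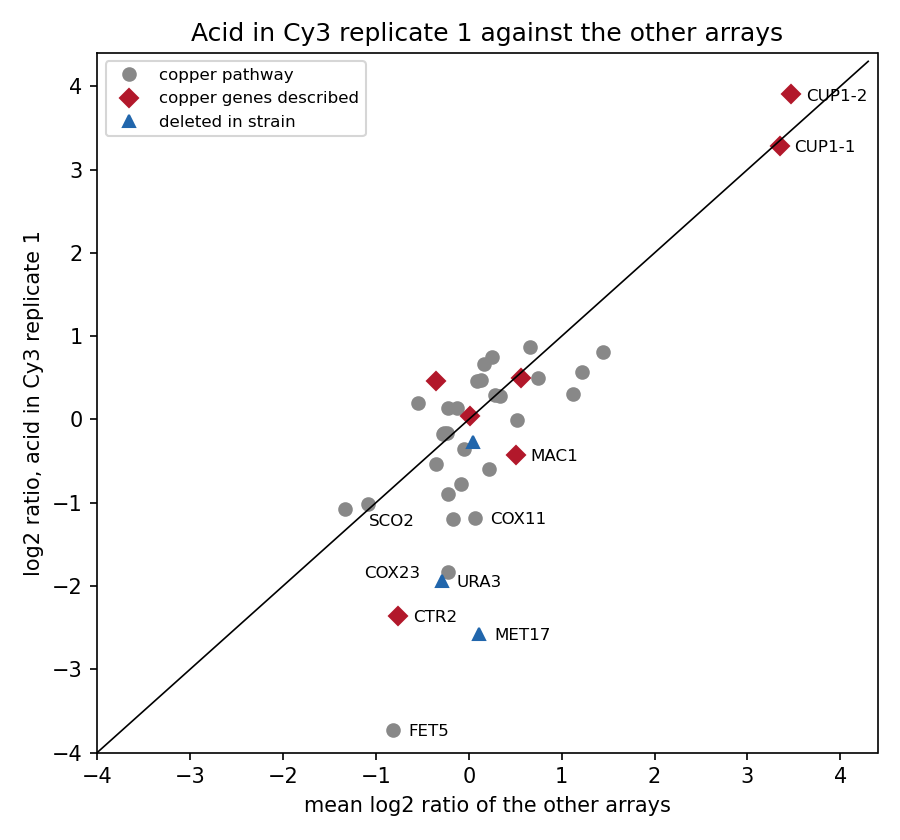
Log2 ratio on acid in Cy3 replicate 1 (y axis) against the mean log2 ratio of the other arrays (x axis) for 7 of the copper genes (red), 29 other copper pathway genes (grey) and 3 genes deleted in the strain (blue); the line marks equal values. CTR2, FET5, COX23, URA3 and MET17 fall well below the line, and both CUP1 rows lie close to it.

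Around these genes, 35 others were examined, of which 29 had enough values to be tested. Most have a known part in copper or related metal handling. HAA1 was listed for its copper fist, and REE1 and IRC7 as targets of Mac1. Of the 29, 5 rose, 2 fell and 22 did not pass, which is 24.1% called against 10.9% of all genes. Their median was -0.13, against -0.04 over all genes tested. The higher ones were PIC2, REE1, ZRT1, IRC7 and SOD1, and the lower ones FET3 and FRE1. Since these genes were chosen with earlier results of the same data known, nothing is read from the share called.

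Known targets of Mac1 did not move together. FRE1, which encodes the reductase that prepares copper and iron for uptake, had -1.16 and -1.03 with acid in Cy5 and -1.01 and -1.06 with acid in Cy3. It fell to a mean of -1.06 ± 0.06 (SD, n = 4), or 0.479-fold (limma adjusted p = 0.00494), with 4 nearly equal values. REE1, a gene tied to enolase regulation, had 1.34 and 1.25 with acid in Cy5 and 0.57 and 1.07 with acid in Cy3, and rose by 1.06 ± 0.35 (limma adjusted p = 0.0156). IRC7, a gene of sulfur amino acid breakdown, rose by 0.72 ± 0.26 (limma adjusted p = 0.0386), with 0.33 on its lowest array. FRE7, a second reductase gene, had a mean of 0.39 ± 0.31 (limma adjusted p = 0.175). Of these 4 targets outside the group, 2 rose, 1 fell and 1 did not pass, with a median of 0.55.

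SOD1, the copper- and zinc-dependent superoxide dismutase gene and a Cup2 target besides the metallothioneins, had 0.94 and 0.77 with acid in Cy5 and 0.50 and 0.53 with acid in Cy3. It rose by 0.68 ± 0.21 (SD, n = 4), or 1.61-fold (limma adjusted p = 0.0365). All 4 values lay above 0 and well below those of CUP1. CCS1, the chaperone gene for Sod1, had no row.

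Genes outside the group listed with copper delivery to the secretory pathway all had means below 0, but only 1 of 4 passed. FET3, the multicopper ferroxidase gene of high-affinity iron uptake, had -1.53 and -0.95 with acid in Cy5 and -1.08 and -1.52 with acid in Cy3. It fell to -1.27 ± 0.30 (SD, n = 4; limma adjusted p = 0.0064). FET5, the vacuolar ferroxidase gene, had a lower mean of -1.54 but a spread of 1.58, with -3.73 on acid in Cy3 replicate 1 and -0.19 on acid in Cy5 replicate 2 (limma adjusted p = 0.130). It was called with a dye term, with same-numbered arrays averaged and after quantile normalization. CCC2, the copper pump gene that receives copper from Atx1, had -0.25 ± 0.06 (limma adjusted p = 0.242), and GEF1, a chloride channel gene, -0.14 ± 0.26 (limma adjusted p = 0.587).

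For delivery of copper to mitochondria, where cytochrome oxidase needs it, 1 of 8 genes rose and 7 did not pass, with a median of -0.24. PIC2, a carrier gene for phosphate and copper in the inner membrane, had 1.59 and 1.54 with acid in Cy5 and 0.81 and 1.21 with acid in Cy3, and rose by 1.29 ± 0.36 (SD, n = 4), or 2.44-fold (limma adjusted p = 0.00808). The copper chaperone gene COX17 had 0.29 ± 0.30 and its partners SCO1 and SCO2 had -0.13 ± 0.25 and -0.43 ± 0.52 (limma adjusted p = 0.285, 0.611 and 0.237). The other 4, MRS3, COX11, PET191 and COX23, had means between -0.63 and 0.22.

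Of 5 other genes listed under copper uptake, not all of them transporter genes, 0 passed in limma, also at an unadjusted p of 0.05. The smallest p were those of the reductase genes FRE6 (-0.21 ± 0.16, limma adjusted p = 0.342) and FRE2 (0.18 ± 0.24, limma adjusted p = 0.445). In metal detoxification and zinc balance, 1 of 6 genes passed. ZRT1, the high-affinity zinc transporter gene, had 1.09 and 1.43 with acid in Cy5 and 0.30 and 0.85 with acid in Cy3, and rose by 0.92 ± 0.47 (SD, n = 4; limma adjusted p = 0.0418). The other 5 had means between -0.40 and 0.28.

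**Figure D4:**
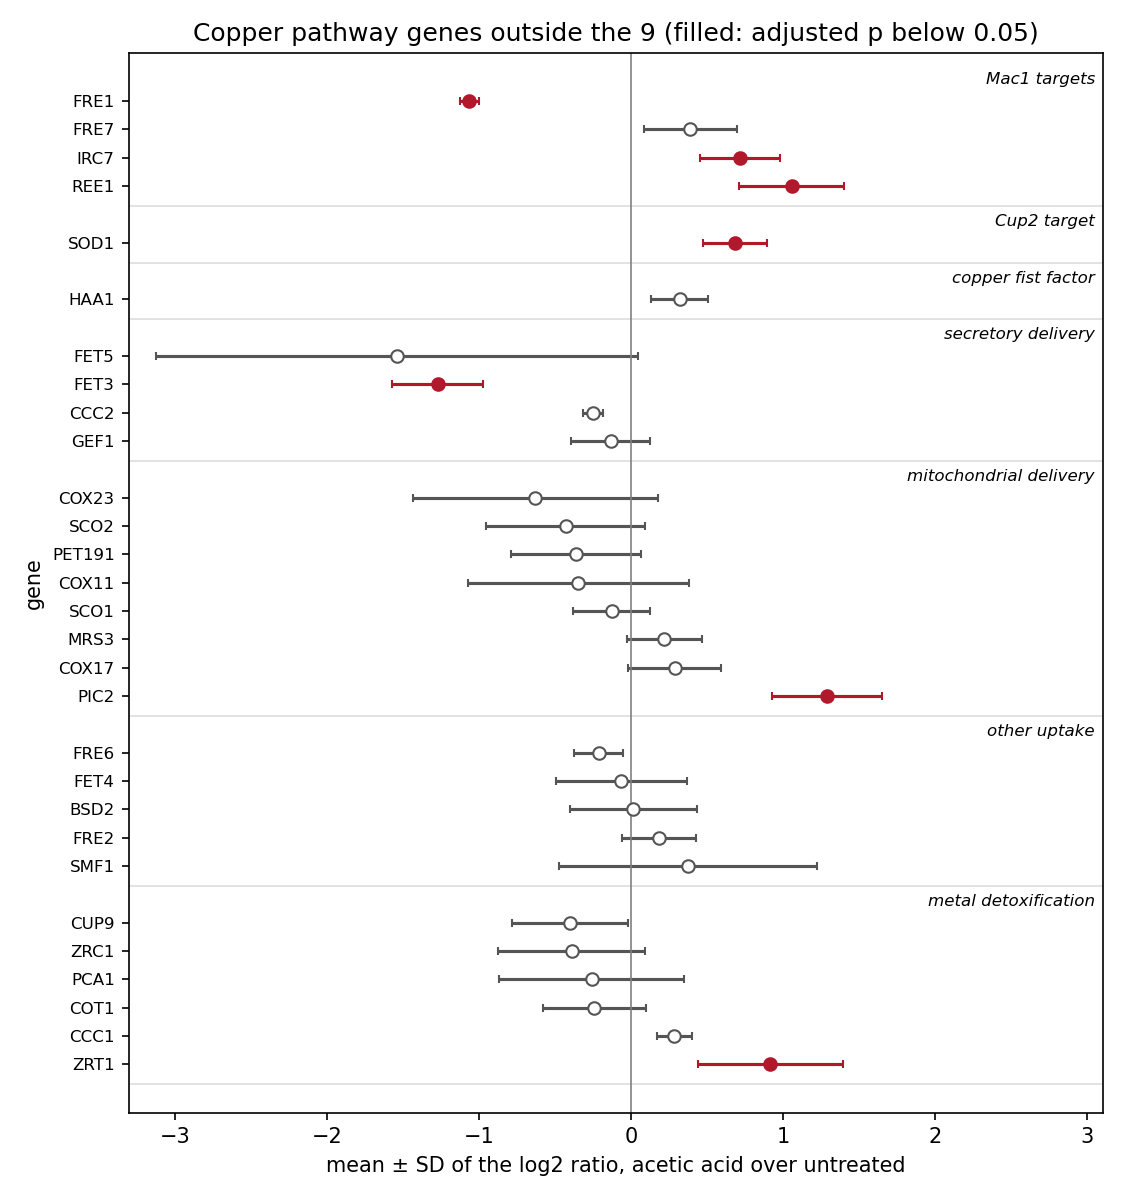
Mean ± SD over arrays (n = 4, COX11 n = 3) of the log2 ratio of acid-treated over untreated cells (x axis) for 29 copper pathway genes outside the group (y axis), by role; filled red points passed an adjusted p of 0.05 in limma. PIC2, REE1, ZRT1, IRC7 and SOD1 lie to the right of 0 and FRE1 and FET3 to the left, and FET5 has the longest bar.

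The calls around the group rested on different numbers of arrays. FRE1 and FET3 were called in every fit that left out 1 array. PIC2 was not called without acid in Cy3 replicate 2. REE1, SOD1, IRC7 and ZRT1 lost their calls when either array with acid in Cy5 was left out, which kept 3 of the 7 calls each time, and when acid in Cy3 replicate 2 was left out, which kept 2. With same-numbered arrays averaged, SOD1, IRC7 and ZRT1 were not called and FET5 was, which made 2 of 4 genes of secretory delivery.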

How the data were processed

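Two-colour arrays compared acid-treated with untreated yeast. Per the labels' protocols, RNA came from an acid phenol extraction and was labelled indirectly. The deposited table holds 1 value per gene and array, taken as a log2 ratio because values are signed with medians near 0; the base, scanner, background correction, normalization and spot averaging are not stated in any source used, so signal over background is unknown. Arrays of opposite orientation correlated above 0 over genes and were taken as already turned one way. Of 5799 names, 5336 matched a reference locus tag. Genes with at least 3 values (5291) entered an intercept model in limma 3.58.1 (R 4.3.3; lmFit, eBayes, two-sided, Benjamini-Hochberg over all genes, threshold 0.05), and with a dye term for the dye test. The fit was run on simulated data with independent noise and no array or dye effect. That checks the estimates of the model and not the calls made here. Missing values were dropped, not imputed. The number of arrays, 4, limits the precision.

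Named are the 9 copper genes, pathway genes past the threshold (the 2 with the smallest p in lists where none passed), the 5 nearest profiles to CUP1 and CTR1, the neighbours of CUP1, HAA1, HSF1 and genes deleted in the strain; FRE7, the other genes of secretory and mitochondrial delivery and those low on acid in Cy3 replicate 1 were added after their values were seen. Genes and lists were chosen with earlier results of these data known. Alternatives were a dye term, same-numbered arrays as a block or averaged, centring, scaling, quantile normalization, other minimums of values, robust variance and leaving out each array. Deviations from orientation means correlated at 0.25 between same-numbered arrays over 4896 genes; since there are only 2 pairs, arrays were not treated as paired.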

Additional observations from a re-analysis of the deposited data

Results flagged for a closer look

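Among 42 genes of the copper, locus, deleted-gene and mating-type lists with 4 values, 2 had 1 array far from the other 3, and chance alone flags about 1 in 20 such sets. COX23, a mitochondrial gene of cytochrome oxidase assembly, had -1.83 on acid in Cy3 replicate 1, against -0.23 on average on the other arrays. URA3, deleted in the strain, had -1.94 on the same array, against -0.29 on the others. The low CTR2 value on that array fell short of the same limit.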

How the results depend on the processing

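CUP1 was chosen for its rise, so its calls say nothing about stability. The mean ratios of its rows lay between 3.22 and 3.39 (CUP1-1) and between 3.45 and 3.70 (CUP1-2) when 1 array was left out, and between 3.32 and 3.51 and 3.58 and 3.74 under the others. No mean of the 8 copper genes moved by its own spread. Leaving out 1 array cannot move a mean by the spread of the same arrays, so nothing is read from those fits here. CTR2 ranged from -1.36 to -0.76 with 1 array left out, and the number of copper genes called was 2, or 3 where CTR2 was called. Over all genes, calls numbered 575, 197 to 825 with 1 array left out, and among these 271 and 251 when the first or the second array with acid in Cy5 was left out and 197 without acid in Cy3 replicate 2. Copper pathway calls numbered 7, and 2 to 7 with 1 array left out. With the replicate block as an average of same-numbered arrays, 377 genes and 5 copper pathway genes were called, and as a random block, 733 and 7. The random block fit estimated a correlation below 0 within blocks, -0.109, so its larger count makes no allowance for shared RNA. The share of higher calls was 81.4%, against 71.6% with a dye term and 66.9% after quantile normalization, and it was 92.6% and 89.6% without the first or the second array with acid in Cy5 and 93.4% without acid in Cy3 replicate 2, where 20, 26 and 13 genes were called lower against 107. The cause of these differences was not tested. CUP2 and CTR3 lack 1 array each, so they were not tested where 4 values were required, and after 1 further array was left out.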

Other observations

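The genes that mark mating type were compared between conditions, since ratios hold no level and cannot check the strain itself. Of the genes specific to a cells, the pheromone gene MFA2 had a mean log2 ratio of 0.45 ± 0.44, the receptor gene STE2 -0.39 ± 0.38 and the protease gene BAR1 -0.25 ± 1.18 (SD, n = 4), and 0 passed, also at an unadjusted p of 0.05 (limma adjusted p = 0.183, 0.207 and 0.709). A second pheromone gene of a cells, MFA1, had values on only 2 arrays and was not tested. Its values were -0.185 on acid in Cy5 replicate 1 and 0.046 on acid in Cy3 replicate 2. BAR1 had 0.88 and 0.58 with acid in Cy5 and -1.60 and -0.87 with acid in Cy3, so its sign followed the dyes. STE3, specific to alpha cells, had a value on 1 array, -3.22 on acid in Cy3 replicate 1.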
